A study of Mus musculus with 8 samples.

Results

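The genes described here are 5 CC chemokines that attract monocytes and other leukocytes, Ccl2, Ccl7, Ccl8, Ccl11 and Ccl12. They were chosen by gene symbol: each was the only platform symbol of exactly 1 transcript cluster (the set of probes read as 1 gene), which gave 5 of 30142 genes with a cluster of 1 symbol on the array. RNA was taken from the ascending aorta of male mice at 10 weeks of age, bred from heterozygous parents on a C57BL/6J background. Fbn1mgR/mgR mice, arrays mgR611, mgR612, mgR613 and mgR614, are homozygous for mgR, a hypomorphic allele of the fibrillin-1 gene that models severe Marfan syndrome with aortic aneurysm. The wild-type group (arrays WT675, WT676, WT742 and WT744) came from the same kind of cross. Whether the 4 samples of a genotype are 4 animals is not stated in the labels. Each p-value therefore treats the samples as independent replicates, which could not be checked.

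Chemokines are small secreted proteins that bind heparan sulfate and guide leukocytes through G protein-coupled receptors. In the mouse, CCL2, CCL7 and CCL12 are ligands of CCR2, the receptor that brings inflammatory monocytes out of the bone marrow and into tissue. Mouse CCL8 signals through CCR8, and CCL11, or eotaxin, attracts eosinophils through CCR3. In an artery wall, smooth muscle cells, adventitial fibroblasts, endothelial cells and macrophages can all be sources of these chemokines, so a bulk aorta does not show which cell made the transcript.

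The 5 genes are neighbours on chromosome 11, where the RefSeq gene order of assembly GRCm38.p6 runs Ccl2, Ccl7, Ccl11, Ccl12 and Ccl8, with 1 predicted RNA gene between Ccl11 and Ccl12. The RefSeq promoter table held 2 of the 5 genes, Ccl8 and Ccl12, which lie side by side. The 250 bases before their annotated starts are shown because these neighbours had measured changes of different size in the mutant aorta (below). The wild-type signal of Ccl12 was low, so the size of its change is uncertain. Both are on the + strand of GRCm38.p6, at chr11:82114935-82115184 for Ccl8 and chr11:82101595-82101844 for Ccl12, and capitals mark the match to TATAAA, the core of the TATA box.
Ccl8: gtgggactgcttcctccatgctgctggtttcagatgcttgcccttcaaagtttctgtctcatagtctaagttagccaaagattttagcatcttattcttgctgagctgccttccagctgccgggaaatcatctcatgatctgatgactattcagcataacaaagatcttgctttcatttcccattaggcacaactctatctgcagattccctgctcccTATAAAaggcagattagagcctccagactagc
Ccl12: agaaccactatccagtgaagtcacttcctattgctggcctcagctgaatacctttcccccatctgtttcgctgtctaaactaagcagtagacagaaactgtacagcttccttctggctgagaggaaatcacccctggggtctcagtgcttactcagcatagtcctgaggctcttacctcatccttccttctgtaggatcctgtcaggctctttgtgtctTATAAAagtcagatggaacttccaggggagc
The first base of TATAAA lay 32 bases before the start of Ccl8 and 31 bases before that of Ccl12. TATAAA on either strand occurred in 12.4% of 32851 promoter windows of this length. In a global alignment of both stretches, 143 of 235 aligned bases were identical (60.9%). The longest run of bases found in both was 8. No other pair of windows was aligned, so this identity has no value to be compared with. Neither stretch held a match on either strand to the motifs searched for NF-kappaB (GGGNNNNNCC, in 45.8% of windows), AP-1 (TGANTCA, 6.75%), STAT factors (TTCNNNGAA, 7.02%), STAT6 (TTCNNNNGAA, 5.85%) or C/EBP (TTGCNNAA, 9.56%), which says only that these letters are not in these windows.

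Of the 5 chemokine genes, 3 rose in the Fbn1mgR/mgR aorta: Ccl8 by 25.2-fold, Ccl2 by 5.39-fold and Ccl7 by 4.31-fold. Ccl12 was 3.84-fold higher without passing the test, and Ccl11 was 1.62-fold lower without passing. The test was limma on log2 signals, with adjusted p (Benjamini-Hochberg) under 0.05 over 32957 transcript clusters. Among all of these clusters 1.86% were called, 1.40% higher and 0.464% lower in Fbn1mgR/mgR. Every mutant array lay above every wild-type array for 4 of the 5 genes, as it did for 5.26% of the clusters tested. The opposite held for 3.65%, which makes 8.92% without overlap. All 5 genes were tested, and none entered the test through 1 genotype alone, since the lowest genotype mean was 4.27 and the filter on mean signal was at 4.01.

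**Figure D1:**
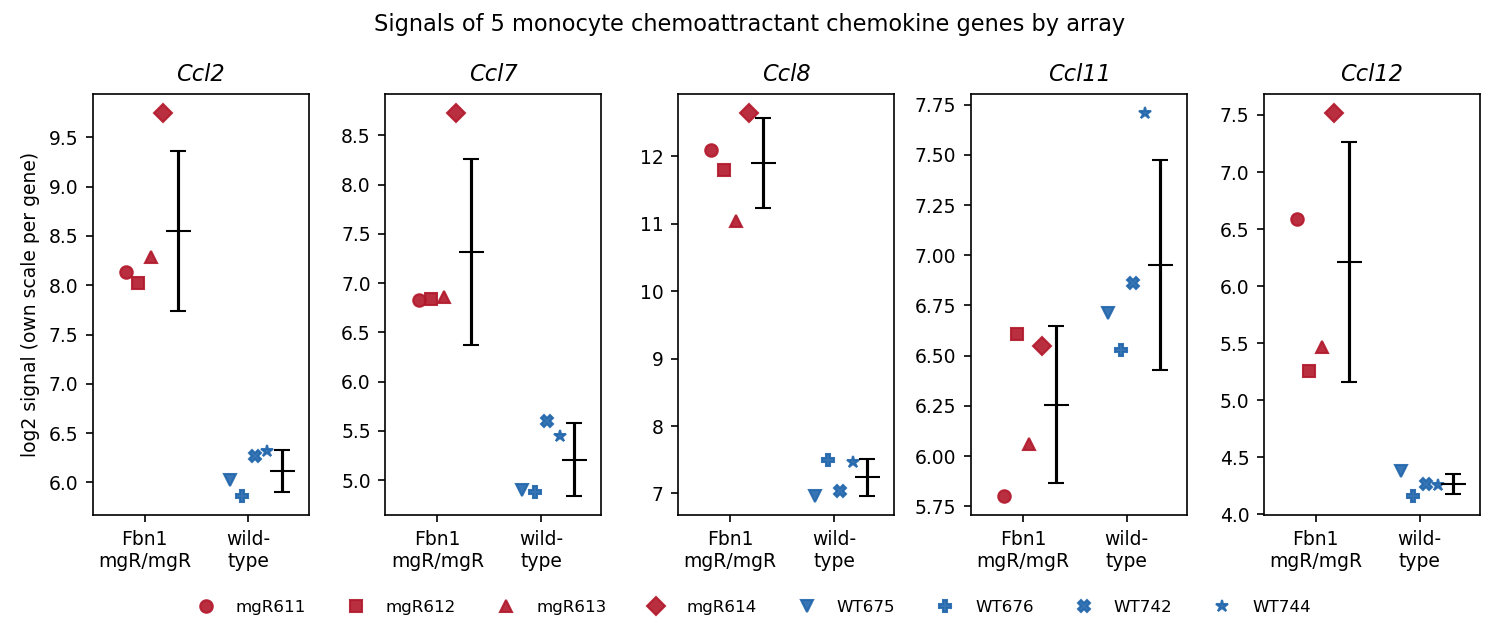
Log2 signal of each of the 5 chemokine genes on each array, with a separate vertical scale per gene. Symbols are arrays, red for Fbn1mgR/mgR and blue for wild-type, and black bars are the mean and SD of 4 arrays. Every mutant array lies above every wild-type array for Ccl2, Ccl7, Ccl8 and Ccl12, and the genotypes overlap for Ccl11.

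Ccl2, also called MCP-1, is the principal ligand of CCR2. Its log2 signal was 8.13, 8.02, 8.29 and 9.75 on mgR611, mgR612, mgR613 and mgR614, against 6.02, 5.86, 6.27 and 6.32 on WT675, WT676, WT742 and WT744. The genotypes did not overlap, with 1.70 between the lowest mutant and the highest wild-type array, and mgR614 stood above the other mutant arrays. The means were 8.55 ± 0.809 in Fbn1mgR/mgR and 6.12 ± 0.216 in wild-type (SD, n = 4 each), a log2 difference of 2.43 (SE 0.359, adjusted p = 0.0140 by limma). The adjusted p was 0.0526 without WT675, and the call held without any other single array.

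Ccl7, or MCP-3, encodes a further CCR2 ligand. Its log2 signal was 6.83, 6.84, 6.86 and 8.73 on mgR611, mgR612, mgR613 and mgR614, against 4.90, 4.88, 5.60 and 5.45 on WT675, WT676, WT742 and WT744. Apart from mgR614, the mutant arrays lay within 0.03 of each other, and the genotypes did not overlap. The means were 7.32 ± 0.943 in Fbn1mgR/mgR and 5.21 ± 0.372 in wild-type (SD, n = 4 each), a log2 difference of 2.11 (SE 0.428, adjusted p = 0.0488 by limma). This call lay at the threshold and was lost without each array in turn other than mgR614, with adjusted p from 0.0643 to 0.137. Without mgR614 the difference was 1.64 (adjusted p = 0.0172), and the call was also lost in limma without an intensity trend, with robust variances, without the signal filter and with brown fat markers as a covariate.

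Ccl8, or MCP-2, had the largest difference of the 5 genes. Its log2 signal was 12.09, 11.80, 11.05 and 12.65 on mgR611, mgR612, mgR613 and mgR614, against 6.96, 7.49, 7.04 and 7.47 on WT675, WT676, WT742 and WT744. The lowest mutant array stood 3.56 above the highest wild-type array, which exceeds the range of 1.60 within the mutants and 0.53 within wild-type. The means were 11.9 ± 0.666 in Fbn1mgR/mgR and 7.24 ± 0.279 in wild-type (SD, n = 4 each), a log2 difference of 4.66 (SE 0.315, adjusted p = 0.000966 by limma). Ccl8 passed under all 21 alternative settings, with adjusted p from 0.000325 to 0.0123.

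Ccl12, or MCP-5, is a ligand of mouse CCR2. Its log2 signal was 6.59, 5.26, 5.47 and 7.52 on mgR611, mgR612, mgR613 and mgR614, against 4.38, 4.16, 4.27 and 4.26 on WT675, WT676, WT742 and WT744. The genotypes did not overlap, but the mutant arrays spread over 2.26, against 0.22 in wild-type. The means were 6.21 ± 1.05 in Fbn1mgR/mgR and 4.27 ± 0.0900 in wild-type (SD, n = 4 each), a log2 difference of 1.94 (SE 0.443, adjusted p = 0.0720 by limma). Ccl12 passed without mgR612 (2.26, adjusted p = 0.0491). Its wild-type mean lay 0.15 above the 95th percentile of the mean signals of olfactory receptor clusters, 4.11, which served as a mark of dim signal, so the size of the difference is uncertain.

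Ccl11 encodes the eosinophil attractant eotaxin and was the only one of the 5 genes with a lower mutant mean. Its log2 signal was 5.80, 6.61, 6.06 and 6.55 on mgR611, mgR612, mgR613 and mgR614, against 6.71, 6.53, 6.86 and 7.71 on WT675, WT676, WT742 and WT744. The genotypes overlapped, since mgR612 and mgR614 lay above WT676, and WT744 stood highest. The means were 6.26 ± 0.391 in Fbn1mgR/mgR and 6.95 ± 0.523 in wild-type (SD, n = 4 each), a log2 difference of -0.70 (SE 0.283, adjusted p = 0.308 by limma). The 95% interval of that difference was -1.34 to -0.05, which is not adjusted for the number of clusters tested.

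To compare the sizes of change, the gap between 2 genes on the same array was set between genotypes, for all 10 pairs, with an exact two-sided permutation test over 70 labellings. The smallest p this design allows is 0.0286, or 0.0408 after adjustment over the 10 pairs, and 7 pairs reached it. The log2 change of Ccl8 exceeded that of Ccl2 by 2.23, that of Ccl7 by 2.55 and that of Ccl12 by 2.72 (adjusted exact p = 0.0408 for each), with no overlap of the genotypes in any of these gaps. The changes of Ccl2, Ccl7, Ccl8 and Ccl12 exceeded that of Ccl11 by 3.13, 2.81, 5.36 and 2.64 (adjusted exact p = 0.0408 for each). The changes of Ccl2, Ccl7 and Ccl12 did not differ past the threshold, with 0.32 between Ccl2 and Ccl7 (adjusted exact p = 0.0714), 0.49 between Ccl2 and Ccl12 (adjusted exact p = 0.190) and 0.17 between Ccl7 and Ccl12 (adjusted exact p = 0.714). The wild-type mean of Ccl12 (4.27) lay close to the mark of dim signal (4.11), so every gap that involves Ccl12 is uncertain in size.

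The mutant arrays had a common leader. mgR614 was highest of the mutant arrays for Ccl2, Ccl7, Ccl8 and Ccl12, and second to mgR612 for Ccl11. It stood above the mean of the other mutant arrays by 1.60 for Ccl2, 1.89 for Ccl7, 1.0 for Ccl8, 1.75 for Ccl12 and 0.39 for Ccl11 (log2). Over all tested clusters, mgR614 was the highest mutant array in 26.9%, and the 5th and 95th percentiles of the same quantity were -0.55 and 0.64. Over the 460 clusters called higher in Fbn1mgR/mgR, mgR614 was highest in 30.2%, with percentiles of -0.48 and 0.79. Below mgR614 the order was not shared: mgR613 was next for Ccl2, and mgR611 was next for Ccl8 and Ccl12. For Ccl7 the other mutant arrays lay within 0.03 of each other and are not ranked. The lowest array was mgR612 for Ccl2 and Ccl12, mgR611 for Ccl11, and mgR613 for Ccl8.

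**Figure D2:**
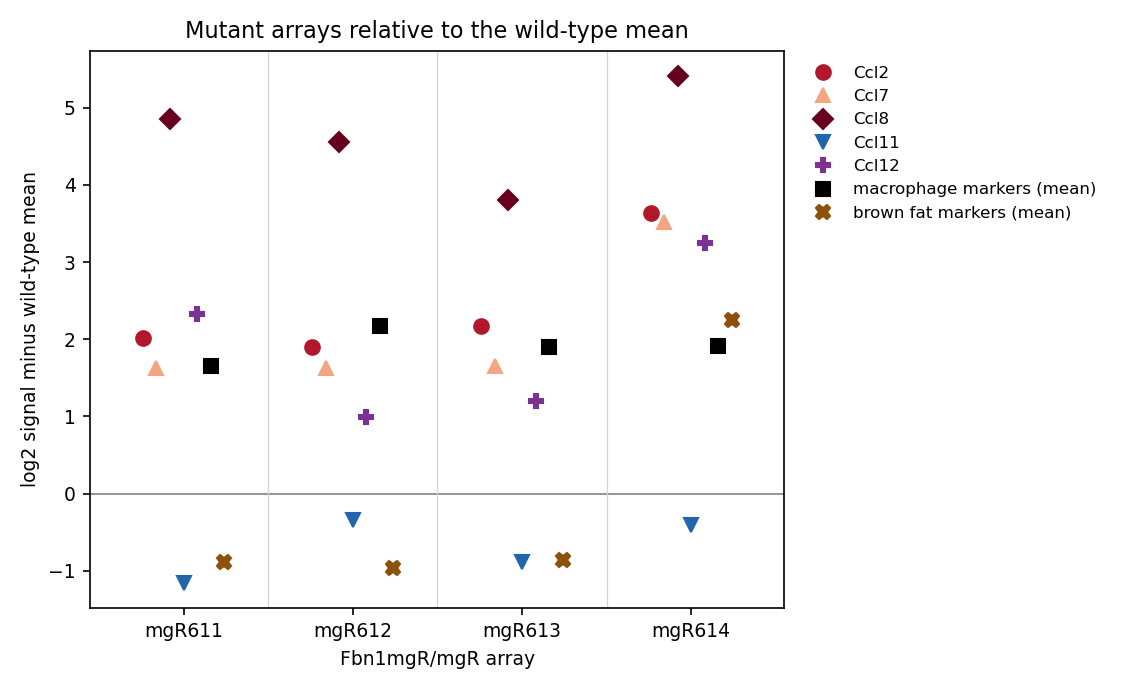
Log2 signal of each Fbn1mgR/mgR array minus the mean of the 4 wild-type arrays, for the 5 chemokine genes and for the mean of 15 macrophage markers and of 8 brown fat markers. Ccl2, Ccl7, Ccl8, Ccl12 and the brown fat mean are highest on mgR614, while the macrophage mean lies between 1.65 and 2.17 on every mutant array.

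Array mgR614 also stood apart in tissue markers. None of 7 tested brown fat markers passed limma in either direction (0 with an unadjusted p under 0.05). That test compares genotypes and does not address single arrays. The mean log2 signal of 8 brown fat markers was 10.3 on mgR614 against 7.04 to 7.15 on the other mutant arrays, and 10.6 on WT676 against 6.26 to 8.10 on the other wild-type arrays. WT676 was the lowest wild-type array for Ccl2, Ccl7, Ccl11 and Ccl12 and the highest for Ccl8. Without mgR614 and WT676 the differences were 1.94 for Ccl2 (adjusted p = 0.0145), 1.53 for Ccl7 (adjusted p = 0.0371), 4.49 for Ccl8 (adjusted p = 0.0123), 1.47 for Ccl12 (adjusted p = 0.170) and -0.94 for Ccl11 (adjusted p = 0.349, limma throughout). Smooth muscle markers had their lowest mean on mgR614 (13.3, against 14.1 to 14.4 on the other mutant and 14.1 to 14.8 on the wild-type arrays), and 0 of 8 passed limma, with 2 lower at an unadjusted p under 0.05. The part of smooth muscle content in the chemokine order was not tested.

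Macrophage markers moved with genotype beside these chemokines. Of 15, all tested, 12 rose and 0 fell in limma (with an unadjusted p under 0.05, 0 were lower), and their mean was 9.38 to 9.91 in Fbn1mgR/mgR against 7.59 to 7.87 in wild-type, a difference of 1.91. Without mgR614 and WT676 the number that rose was 7. The differences of the 5 lost markers there and with all arrays were 1.64 and 1.66 for Adgre1, 2.32 and 2.41 for Lyz2, 0.92 and 0.96 for Aif1, 1.04 and 1.16 for Cd14, and 1.87 and 2.11 for Fcgr1. With any single array left out, 11 or 12 rose. On the mutant arrays the macrophage mean was highest on mgR612 and lowest on mgR611. Single markers differed in order: Itgam, Cd14, Fcgr1 and Aif1 were highest on mgR614, and the others on another mutant array. The part of macrophage content in the chemokine order was not tested. Of 8 resident macrophage markers 4 rose, with a mean of 10.6 to 11.6 in Fbn1mgR/mgR against 9.60 to 10.0 in wild-type, and among the mutant arrays that mean was lowest on mgR614. That count was 0 without mgR613 or WT675, 1 without WT744 and 2 without mgR612, mgR614 or WT676. Of 6 classical monocyte markers with a cluster, Ccr2 (3.50) and F10 (0.49) rose in limma, while Ly6c2 was at 0.67 (adjusted p = 0.625). F10 missed the threshold with any single array other than mgR613 left out (adjusted p from 0.0521 to 0.0960). The wild-type mean of F10, 4.26, lay close to the mark of dim signal (4.11), so the size of its rise is uncertain. More macrophages in the sample and more chemokine RNA per cell cannot be told apart in these bulk samples. Eosinophil markers were dim, with 5 of 7, Prg2, Il5ra, Siglecf, Ccr3 and Epx, at or below 4.11 on every array, and 0 of the other 2 passed limma (0 with an unadjusted p under 0.05). Fibroblast markers (0 of 7) and endothelial markers (0 of 7) had no call in limma. At an unadjusted p under 0.05, 1 fibroblast marker was higher and 2 endothelial markers were lower. Mast cell markers had no call in limma among 6 tested, with 1, Fcer1a, higher at an unadjusted p under 0.05. The mast cell marker Fcer1a passed without mgR613 (adjusted p = 0.0242), but its wild-type mean of 3.76 was dim and it entered the test through the mutant arrays alone.

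Among receptors of these chemokines, Ccr2 and Ccr1 rose. Ccr2, the receptor of CCL2, CCL7 and CCL12, had a log2 signal of 7.61, 8.78, 8.61 and 9.33 on mgR611, mgR612, mgR613 and mgR614, against 4.78, 5.40, 5.37 and 4.78 on WT675, WT676, WT742 and WT744. That is a difference of 3.50 (SE 0.342, adjusted p = 0.00261 by limma) without overlap, and mgR614 was again the highest array. Ccr1, a receptor of CCL7 and of other CC chemokines, rose by 2.37 (SE 0.293, adjusted p = 0.00686 by limma). The scavenger Ackr1, which binds chemokines on venular endothelium without signalling, was at 0.68 (adjusted p = 0.287). Of 8 listed receptors and scavengers with a cluster, these 3 passed the signal filter and 2 rose, with a median difference of 0.18 over all 8 against 0.00 over all clusters with 1 symbol. Ccr8, the receptor of mouse CCL8, read 3.19 to 3.43 in Fbn1mgR/mgR and 3.05 to 3.25 in wild-type, in the range of dim signal. Ccr3, the eotaxin receptor, read 3.03 to 3.35 in Fbn1mgR/mgR and 2.81 to 3.28 in wild-type.

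Of 15 other CC chemokines with a cluster, 9 were tested, 3 rose and 0 fell in limma (with an unadjusted p under 0.05, 0 were lower). Ccl6 (2.96, adjusted p = 0.00281) and Ccl9 (2.81, adjusted p = 0.00605), which encode chemokines of the CCR1 group of rodents, and Ccl3 (0.92, adjusted p = 0.0104), which encodes MIP-1 alpha, rose. Ccl24, a further eotaxin gene, was at 1.13 without overlap of the genotypes (adjusted p = 0.177), and Ccl17 (0.41) and Ccl19 (0.09) did not pass. The median over all 15 was 0.15. Without mgR614 and WT676 the differences of Ccl9 and Ccl3 were 2.61 (adjusted p = 0.0729) and 0.86 (adjusted p = 0.105), and 1 of the 3 calls held. The differences of the tested chemokine and receptor genes are drawn with their intervals.

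**Figure D3:**
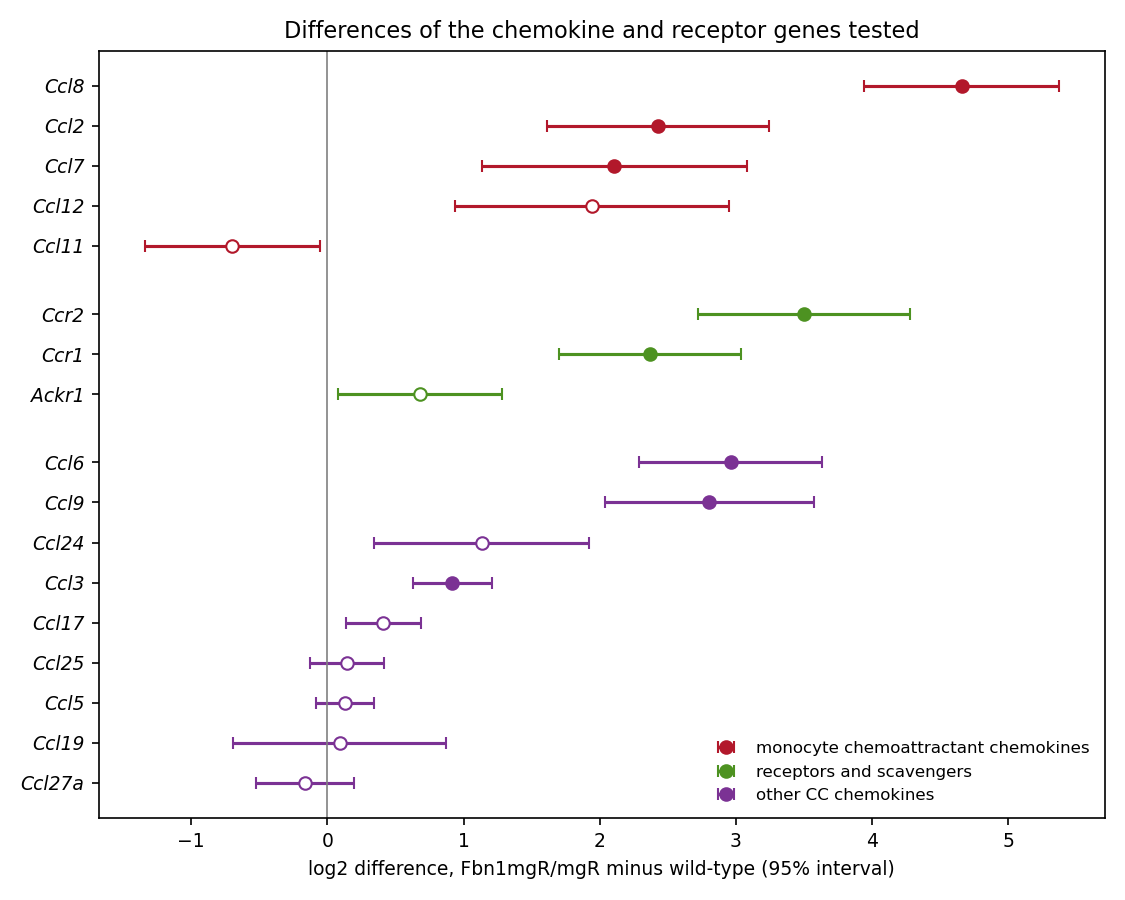
Log2 difference, Fbn1mgR/mgR minus wild-type, of the tested chemokine and receptor genes with 95% intervals from limma, grouped by list. The intervals are not adjusted for the number of clusters tested. Filled circles have an adjusted p under 0.05. Ccl8 lies furthest right at 4.66, followed by Ccr2 at 3.50, and Ccl11 is the lowest at -0.70.

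Cytokines that induce these chemokines in other settings were mostly dim or did not pass. Of 15 listed inducing cytokines and receptors with a cluster, 10 were tested and 3 rose, all receptors: Il13ra1 (1.19, adjusted p = 0.00755) and Il4ra (1.66, adjusted p = 0.0398), chains of the receptors for interleukins 4 and 13, and Tnfrsf1b (1.0, adjusted p = 0.0125), a TNF receptor. With an unadjusted p under 0.05 in limma, 7 of the 10 were higher and 0 lower. The share of all tested clusters under that cut is not given, so the count is not read as a result about the list. Il1r1 (0.955, adjusted p = 0.110) and Tnfrsf1a (0.435, adjusted p = 0.145) were among these 7 and did not pass. Il4ra missed the threshold without mgR611, mgR613, WT675, WT676, WT742 or WT744 (adjusted p from 0.0571 to 0.118). Il4 and Il13 themselves were in the range of dim signal, as were Ifng and Il1a. Il6 read 5.20, 4.19, 5.57 and 7.94 on mgR611, mgR612, mgR613 and mgR614, against 3.49, 3.60, 3.96 and 3.71 on WT675, WT676, WT742 and WT744, with mgR614 far above the other mutant arrays. Its wild-type mean of 3.69 lay below both the filter and the mark of dim signal, so Il6 entered the test through the mutant arrays alone, its difference has no firm size, and it did not pass (adjusted p = 0.206). Il1b was at 1.70 (adjusted p = 0.0677), also highest on mgR614, and passed without mgR612 (1.99, adjusted p = 0.0383). The median over all 15 was 0.44, and without mgR614 and WT676 0 of the listed genes passed. There the 3 differences were 1.22 for Il13ra1, 1.35 for Il4ra and 1.02 for Tnfrsf1b (adjusted p = 0.0661, 0.0972 and 0.0973), with fewer arrays in the fit.

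None of 13 transcription factors and feedback inhibitors of the NF-kappaB, AP-1 and STAT pathways passed limma, with 3 higher at an unadjusted p under 0.05, Rel (0.62), Tnfaip3 (0.44) and Stat3 (0.34), and a median of 0.20. Nfkbia, the inhibitor of NF-kappaB, was at -0.28 (adjusted p = 0.742) and Stat6, which acts downstream of interleukins 4 and 13, at -0.31 (adjusted p = 0.487). Of 12 genes of chemokine mRNA decay and peptide processing, Mmp12 (2.28, adjusted p = 0.00667) and Timp1 (1.94, adjusted p = 0.0115) rose, a macrophage protease that can cleave chemokines and an inhibitor of metalloproteinases. The mRNA decay genes Zfp36 (0.01), Zfp36l2 (0.21) and Zc3h12a (0.13) and the peptidase gene Dpp4 (-0.62), whose product trims CCL11, did not pass, and the median of that list was 0.09.

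Genes whose profile over the 8 arrays was closest to a called chemokine were sought by the root mean square difference between profiles, each set relative to its wild-type mean. The genes closest to Ccl2 were Fcgr4 (0.367), an activating Fc receptor whose own rise of 2.24 (adjusted p = 0.0146) was lost without mgR613 or WT675 (adjusted p = 0.0513 and 0.0529), Scimp (0.382), an adaptor of antigen-presenting cells, and C3ar1 (0.384), the receptor of complement C3a. The genes closest to Ccl7 were Timp1 (0.326), Ch25h (0.372), which encodes cholesterol 25-hydroxylase, and Il1b (0.398). Ch25h (adjusted p = 0.0920) and Il1b (adjusted p = 0.0677) did not pass limma. Timp1, Ch25h and Il1b were highest on mgR614, as Ccl7 was, which follows from choosing them by the Ccl7 profile. The genes closest to Ccl8 lay further off, at Bcl2a1a (0.868), H2-Eb1 (0.895) and Prg4 (0.915), with differences of 3.89, 3.71 and 3.51. Bcl2a1a has near-identical relatives, so its signal may be shared. These distances are descriptions over 8 arrays of 2 genotypes.

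None of the genes flanking the chemokine cluster passed limma. Of the nearest 3 genes with a cluster on each side, 5 were too dim to be tested, Gm11419, 5530401A14Rik, Gm11418, Ccl1 and Tmem132e, with differences from -0.03 to 0.10, and Gm24612 was at -0.06 (adjusted p = 0.952).

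**Figure D4:**
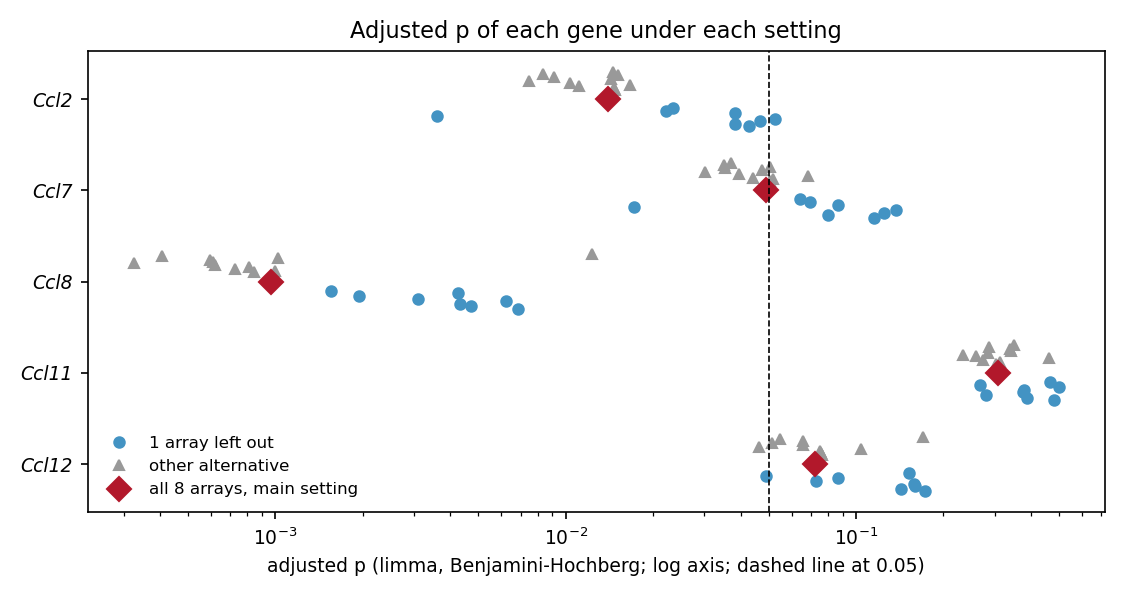
Adjusted p of each of the 5 chemokine genes (log axis) with all 8 arrays, with 1 array left out and under the other alternatives, with the threshold of 0.05 as a dashed line. Ccl8 stays below 0.05 throughout, Ccl7 is at 0.0488 with all arrays and between 0.0172 and 0.137 under the alternatives, and Ccl11 stays above 0.2.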

How the data were processed

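The values are log2 signals per transcript cluster from Affymetrix Clariom D mouse arrays, deposited by the authors and already normalized. Per the submitters' processing notes the Transcriptome Analysis Console was used; the sources used here do not give its version, the normalization or the probe summary. The log2 values have 2 decimals and reach 19.93, and array medians were 3.95 to 4.07. Precision is limited by the 8 arrays. Of 65956 clusters, 30604 carried 1 platform symbol, updated through gene IDs to RefSeq (GRCm38.p6). The brightest cluster stood for a gene.

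Clusters with a mean above the median (4.01) were fitted with limma 3.58.1 in R 4.3.3 (lmFit, eBayes with an intensity trend; Benjamini-Hochberg over 32957 clusters; threshold 0.05; checked on simulated data). Differences are Fbn1mgR/mgR minus wild-type. Medians of lists include dim members. Counts at an unadjusted p under 0.05 have no share over all clusters beside them and are descriptions only. Pairs of genes were compared by exact permutation. Python 3.11.15, pandas 2.3.3 and Biopython 1.88 (alignment: match 1, mismatch -1, gap opening -5, extension -1) were also used. Members and gene lists were chosen with earlier results of these data known. Named genes were the members, list genes that passed or had the smallest p, the 3 closest profiles per called member and flanking genes. The text adds list genes whose product binds or induces a member, chosen after their values were seen. The labels give no batch. Fbn1 was not analysed here.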

Additional observations from a re-analysis of the deposited data

Results flagged for a closer look

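A sample far from the others of its genotype was found in 7 of 104 groups of 4 arrays, over 52 chemokine and pathway genes; chance gives about 1 in 20. For Ccl2, mgR614 read 9.75 against 8.02 to 8.29 on the other mutant arrays, a gap of 0.844 of the range. For Ccl7, mgR614 read 8.73 against 6.83 to 6.86, a gap of 0.984 of the range. The remaining cases were small in size: Ccl17 read 5.19 on mgR611 against 4.98 to 5.0, Tnfrsf1b 7.69 on mgR612 against 7.20 to 7.26, Rel 8.85 on mgR612 against 8.36 to 8.44, and Stat3 10.08 on mgR611 against 9.71 to 9.77. In wild-type, Stat6 read 8.56 on WT742 against 8.73 to 8.74 on the other arrays.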

How the results depend on the processing

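No sign of the 5 chemokine differences turned under any alternative. Ccl2 ranged from 2.03 to 2.61, Ccl7 from 1.64 to 2.27, Ccl8 from 4.41 to 4.94, Ccl11 from -0.84 to -0.45 and Ccl12 from 1.51 to 2.26 with each array left out. Ccl7 (2.11) missed the threshold without an intensity trend (adjusted p = 0.0506), with robust eBayes (0.0519) and without a signal filter (0.0685), and with the brown fat covariate (2.13, adjusted p = 0.0504). At a threshold of 0.01 neither Ccl2 (2.43) nor Ccl7 (2.11) passed. Ccl12 (1.94) passed at 0.1 and, at 0.05, over clusters with 1 symbol only (adjusted p = 0.0464); it was below a filter at the upper quartile. The cause of these shifts was not tested. The number of the 5 genes that rose was 1 to 3 with each array left out (1 without WT675) and 1 at 0.01. At 0.01, 1 inducing gene and 1 processing gene rose, and without mgR614 and WT676, chosen after seeing the data, 0 inducing genes and 1 other CC chemokine, with fewer arrays in the fit. Over all clusters, with single arrays left out, 209 to 441 were higher and 56 to 121 lower, under the main 460 and 153 by over 1.5 times without mgR613, mgR614, WT675, WT676, WT742 or WT744 (higher) and mgR611, mgR613, mgR614, WT675 or WT744 (lower). They were 765 and 362 at 0.1, 153 and 29 at 0.01, 115 and 53 without mgR614 and WT676, and 99 lower without the filter. Fitting the variance over all clusters, also chosen later, gave 507 and 184, with adjusted p of 0.0350 for Ccl7 and 0.0546 for Ccl12. After quantile normalization each of the 10 pairs stayed on the same side of the threshold as in the main setting. No exact p is given for pairs with an array left out. Averaging the clusters of a gene was not run for the 5 chemokine genes, since each had 1. No paired analysis was possible because the genotypes share 0 replicate numbers.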
